A study of Mus musculus with 3 samples.

Results

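In resting splenic natural killer cells (NKC), 1741 Runx3-bound regions lay at protein-coding promoters that carried H3K4me1 beside the centre of the bound region but not across it. They made up 31.5% (95% confidence interval 30.3 to 32.7%) of the 5533 Runx3-bound regions at protein-coding promoters and 11.2% of all 15524 Runx3-bound regions. A Runx3-bound region, called a peak here, was taken when its midpoint lay under 1 kb from the transcription start site (TSS) of a protein-coding transcript, when at least 1 of its bases fell in an H3K4me1-marked region, and when its midpoint fell outside every such region. These are called flanked peaks. The other promoter peaks are called covered where an H3K4me1-marked region ran across the midpoint (3533 peaks, 63.9%) and unmarked where the peak met no such region (259 peaks, 4.68%). The flanked peaks were thus chosen by their measured overlap with H3K4me1, and the absence of the mark at their centre is a description, not a result.

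The 3 samples were chromatin immunoprecipitation sequencing (ChIP-seq) libraries of freshly isolated NKC from the spleens of wild type ICR mice. The series held 1 sample per antibody, while the study's methods describe biological repeats whose reads were joined before regions were called. Chromatin was precipitated with an in-house polyclonal antibody to Runx3, with a monoclonal antibody to H3K4me1, the form of histone H3 with a single methyl group on lysine 4, or with NIS, a non-immune serum used as the control. The labels describe sorting on NKp46 and the study's methods sorting on DX5. The deposited lists hold coordinates alone, so that neither the depth nor the height of a peak could be read, and no spread between replicates could be computed. Intervals are at the 95% level, cover counting error over peaks only and are not adjusted for the number of comparisons, and peaks are not replicates of a condition. Shares have Wilson intervals, differences of shares Newcombe intervals, and medians order-statistic intervals.

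H3K4me1 is laid down at enhancers and on the nucleosomes beside active promoters. At a promoter in use the nucleosomes next to the TSS usually carry the trimethylated form of the same lysine, and the TSS itself is often free of nucleosomes, so that H3K4me1 tends to form shoulders around an unmarked centre. Promoters of broadly used genes are commonly rich in CpG dinucleotides, lack a TATA box and are often shared by a pair of genes transcribed away from each other (divergent starts). Runx3 is a sequence-specific factor of the RUNX family that is needed for the maturation and function of cytotoxic lymphocytes, and ETS family factors are common neighbours of RUNX factors in blood cells.

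The sequences below are chosen examples of what lay under the centre of these peaks. They are 200 bp windows around the peak midpoint on mm9, read 5′ to 3′ on the strand of the nearest gene, and capitals mark matches to the RUNX consensus on either strand (TGTGGT and TGTGGC, or the forms with a CpG, which are TGCGGT and TGCGGC, so that a match on the other strand appears as its reverse complement). Windows with more than 30 annotated exonic bases were left out of the choice, which kept 529 of the peaks. The first 4 were chosen for a RUNX match and are examples of lymphocyte regulators, of which 6 had a match in such a window. Such a match was not typical of these genes. Of the 38 flanked peaks in the 3 immune gene groups described below, 14 had a RUNX match in the central 200 bp, against 54.1% of all flanked peaks. Stat2, at chr10:127707404-127707603 on the plus strand, encodes a signal transducer of type I interferon. Pik3cd, at chr4:149072236-149072435 on the minus strand, encodes the leukocyte catalytic subunit of phosphoinositide 3-kinase. Gabpb1, at chr2:126501339-126501538 on the minus strand, encodes the partner of an ETS factor, and Bach2, at chr4:32326568-32326767 on the plus strand, a repressor that restrains effector lymphocytes.
Stat2: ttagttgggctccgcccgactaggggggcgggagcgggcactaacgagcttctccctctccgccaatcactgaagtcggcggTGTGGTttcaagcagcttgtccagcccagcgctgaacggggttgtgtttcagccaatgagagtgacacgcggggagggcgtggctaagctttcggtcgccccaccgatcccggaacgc
Pik3cd: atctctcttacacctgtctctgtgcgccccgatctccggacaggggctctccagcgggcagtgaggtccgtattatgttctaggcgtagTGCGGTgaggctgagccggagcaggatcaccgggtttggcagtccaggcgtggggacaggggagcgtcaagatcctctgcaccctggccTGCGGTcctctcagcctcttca
Gabpb1: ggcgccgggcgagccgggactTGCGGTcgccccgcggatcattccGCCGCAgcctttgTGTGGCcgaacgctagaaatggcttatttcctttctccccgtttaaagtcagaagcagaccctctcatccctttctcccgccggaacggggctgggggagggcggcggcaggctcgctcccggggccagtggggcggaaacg
Bach2: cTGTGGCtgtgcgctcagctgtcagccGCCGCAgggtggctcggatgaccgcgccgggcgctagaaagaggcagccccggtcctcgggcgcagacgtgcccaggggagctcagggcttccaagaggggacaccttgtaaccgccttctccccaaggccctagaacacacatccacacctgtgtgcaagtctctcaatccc
Of the next 3 windows, 2 lie between divergent starts and the last shows a peak with no RUNX match along its whole length. Mblac2 and Polr3g, whose product is a subunit of RNA polymerase III, share the window at chr13:81850115-81850314, given on the plus strand. Alg2 and Sec61b, which serve glycosylation and protein entry into the endoplasmic reticulum, share the window at chr4:47487234-47487433, given on the minus strand. Pex16, a peroxisome assembly gene, has its window at chr2:92215293-92215492 on the plus strand.
Mblac2 and Polr3g: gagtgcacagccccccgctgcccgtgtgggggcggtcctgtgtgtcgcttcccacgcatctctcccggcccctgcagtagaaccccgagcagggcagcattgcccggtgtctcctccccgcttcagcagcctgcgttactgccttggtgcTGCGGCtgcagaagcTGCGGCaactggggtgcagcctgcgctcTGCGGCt
Alg2 and Sec61b: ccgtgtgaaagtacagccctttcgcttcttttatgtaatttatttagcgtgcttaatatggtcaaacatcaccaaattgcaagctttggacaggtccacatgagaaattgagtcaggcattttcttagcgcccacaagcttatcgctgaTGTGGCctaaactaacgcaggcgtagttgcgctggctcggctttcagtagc
Pex16: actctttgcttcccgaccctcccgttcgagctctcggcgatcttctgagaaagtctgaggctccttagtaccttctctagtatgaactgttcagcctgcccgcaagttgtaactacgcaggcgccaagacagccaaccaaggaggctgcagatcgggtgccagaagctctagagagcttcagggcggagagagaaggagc

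Flanked peaks sat close to the TSS. Their midpoints lay a median of 18 bp upstream of it (signed distance -18 bp, interval -24 to -13 bp, interquartile range -105 to 56 bp), and 975 of them (56.0%) were within 100 bp of it. Covered peaks had 42.5% within 100 bp, a difference of 13.5 points (10.7 to 16.4), and unmarked peaks 35.1%. The flanked peaks were a median of 914 bp wide (interval 900 to 926 bp, range 391 to 2710 bp), against 825 bp for covered and 694 bp for unmarked peaks. Neither contrast is independent of the selection. A peak centred outside H3K4me1 was flanked only if wide enough to reach a region, and was unmarked otherwise. Among all genes with a promoter peak, H3K4me1 was least frequent near the TSS (48.7% at 75 bp downstream). The midpoints of flanked peaks fell in an annotated exon in 45.3% of cases, in an intron in 13.7% and outside genes in 41.1%. The exonic share was 32.8% among covered peaks. The nearest H3K4me1-marked region began a median of 117 bp from the midpoint (range 1 to 713 bp), with quartiles at 54 and 201 bp.

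The shoulders of H3K4me1 lay on either side of the TSS, as the plot of H3K4me1 around the start shows. Of the 1741 starts nearest to flanked peaks, 14.1% lay in an H3K4me1-marked region, whereas 84.0% had one at 750 bp upstream and 93.3% at 1125 bp downstream. Covered peaks had a shallow dip at the same place, from 93.5% at 575 bp upstream to 67.7% at 150 bp downstream. At unmarked peaks 4.63% of starts were marked, with 39.0% at 1200 bp upstream and 80.3% at 1600 bp downstream. The height of the curves at the centre follows from how the classes were drawn, and so in part does the distance of the shoulders, since a flanked peak had to reach at least 1 of them.

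**Figure D1:**
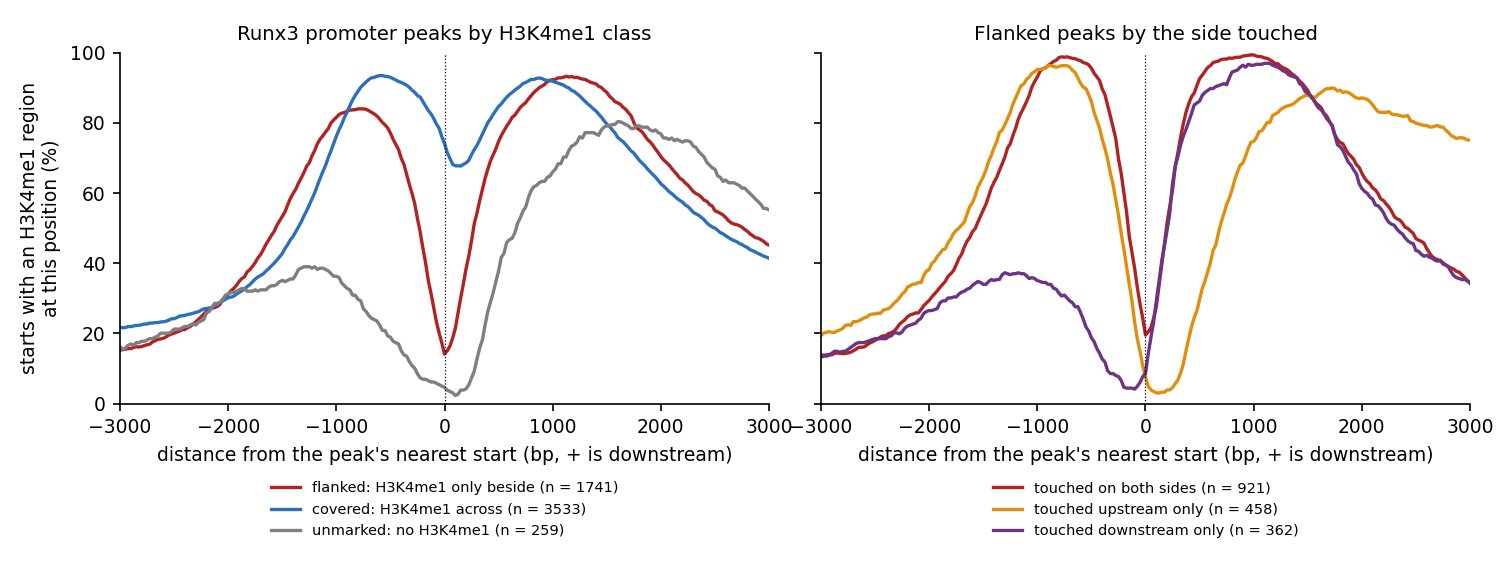
H3K4me1 around the TSS nearest to each promoter peak. The vertical axis gives the percentage of starts with an H3K4me1-marked region at that position and the horizontal axis the distance from the start in bp. Left, the flanked, covered and unmarked peaks, with flanked peaks falling to 14.1% at the start. Right, the flanked peaks by the side of the midpoint on which they touched a region, where those touched upstream only regain 90.0% by 1725 bp downstream and those touched downstream only reach 37.3% upstream.

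The flanked peaks fell into 3 arrangements. Both sides of the midpoint were touched by H3K4me1-marked regions in 921 peaks (52.9%, interval 50.6 to 55.2%), the upstream side alone in 458 (26.3%) and the downstream side alone in 362 (20.8%). Sides are named relative to the nearest gene's direction of transcription. The peaks touched on both sides were wider (median 967 bp) than those touched upstream only (877.5 bp) or downstream only (828.5 bp), and a wider peak reaches further toward both shoulders.

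The peaks touched on 1 side were of unlike kinds. Where the upstream side alone was touched, the midpoint lay a median of 90 bp upstream of the TSS, and a downstream region was still present within 2 kb in 427 of 458 peaks (93.2%), at a median of 790.5 bp from the midpoint among those with one within 20 kb. Where the downstream side alone was touched, the midpoint lay at the TSS (median 0 bp), and an upstream region was present within 2 kb in 156 of 362 peaks (43.1%, interval 38.1 to 48.2%). In 107 of these 362 there was no upstream region within 20 kb, against 8 of 458 in the other direction. Counting any region within 2 kb, 1504 of the 1741 flanked peaks (86.4%) had H3K4me1 on both sides.

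The unmarked gap between shoulders on both sides was bounded by the selection, since a peak that touched both was wider than its gap in 921 of 921 cases. As a description, the gap had a median width of 375 bp (interval 359 to 392 bp, interquartile range 251 to 519 bp), and it was under 1 kb in 902 of 921 peaks. The TSS was inside the gap in 741 of the 921 (80.5%, interval 77.8 to 82.9%). The upstream shoulder ended a median of 159 bp before the TSS and the downstream shoulder began 202 bp after it. Measured from the peak midpoint, the downstream distance was the longer in 558 of 921 peaks (60.6%).

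The 5 widest gaps lay between 1171 and 1408 bp. At Btf3l4, which shares its promoter with Txndc12, the gap was 1408 bp under a peak of 2338 bp. Hnrnpa3, which encodes an RNA-binding protein, had a gap of 1208 bp, and Timm17b, of the mitochondrial import machinery, 1178 bp next to its divergent partner Pqbp1. The gaps at BC030307, opposite Hsp90b1, and at Spata5, opposite Nudt6, were 1175 bp and 1171 bp. So 4 of the 5 widest gaps lay at divergent starts. Armc5 (2710 bp) and Vim (2490 bp), the latter encoding the filament protein vimentin, had the widest peaks, followed by Btf3l4, Sesn3 (2292 bp) and BC030307 (2198 bp).

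**Figure D2:**
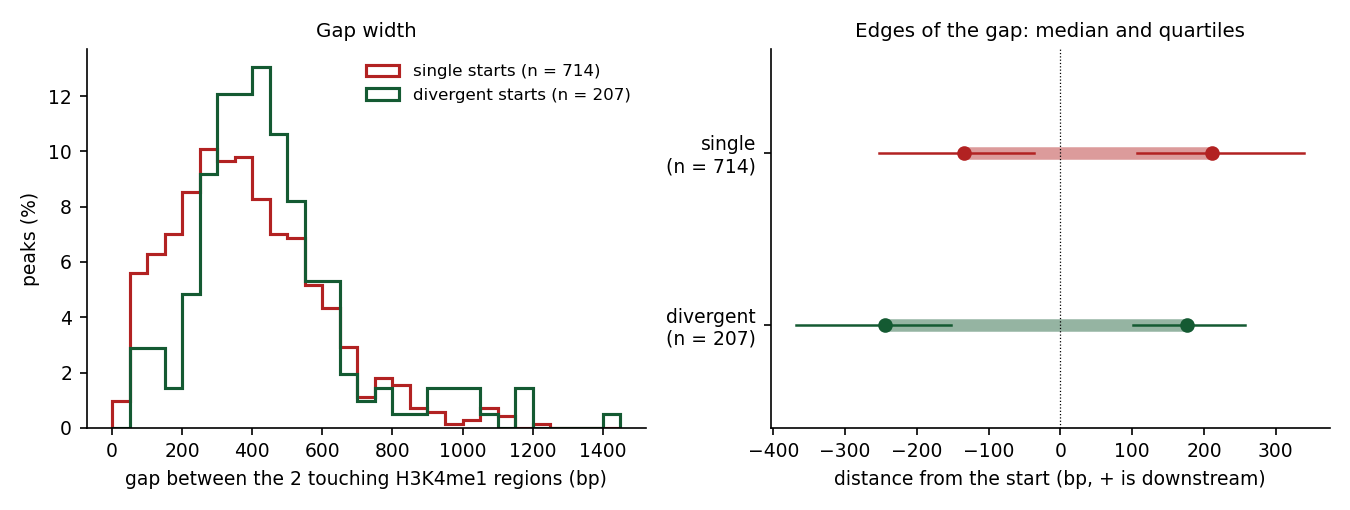
The unmarked gap of the 921 flanked peaks touched by H3K4me1 on both sides. Left, the distribution of gap widths in 50 bp bins as a percentage of peaks, for 714 peaks at single starts and 207 at divergent starts. Right, the position of the gap's edges relative to the TSS, with points at the medians, thin lines over the interquartile ranges and a thick bar between the medians. The gap reaches further upstream at divergent starts (median edge at -245 bp) than at single starts (-134.5 bp).

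Divergent starts were more frequent under flanked peaks than under the other promoter peaks. The nearest start had another protein-coding gene's start head to head within 1 kb in 319 flanked peaks (18.3%, interval 16.6 to 20.2%), in 291 covered peaks (8.24%) and in 15 unmarked peaks (5.79%). The difference from covered peaks was 10.1 points (8.1 to 12.2), and it was 9.28 points (7.19 to 11.4) when high-CpG promoters alone were compared. Among all protein-coding genes 8.65% had a divergent start, and 13.8% of those at high-CpG promoters did. These last shares count genes at their most upstream start, so both genes of a pair can be counted. They are not in the same unit as the shares of peaks. With 1 start per gene, 14.9% (13.2 to 16.7) of flanked peaks lay at divergent starts. The paired starts under flanked peaks were a median of 188 bp apart.

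Divergent pairs had H3K4me1 on both sides more often than single starts. Among flanked peaks, both sides were touched at 207 of 319 divergent starts (64.9%) and at 714 of 1422 single starts (50.2%), a difference of 14.7 points (8.7 to 20.3). The gap was a median of 417 bp (interval 384 to 438 bp) at divergent and 358.5 bp (340 to 381 bp) at single starts. At single starts the downstream distance was the longer in 65.5% of peaks, and at divergent starts in 43.5%. The gap widened with the spacing of the pair, from a median of 353 bp at 49 pairs up to 100 bp apart, through 421 bp at 104 pairs over 100 and up to 300 bp apart, to 487.5 bp at 54 pairs further apart, and the interval of the widest group (436 to 551 bp) lay above that of the closest (321 to 403 bp). In 124 of 207 pairs (59.9%) both starts were inside the gap.

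Named pairs show the arrangement. The mitochondrial chaperonin genes Hspd1 and Hspe1 start 108 bp apart and had a gap of 611 bp with 8 RUNX matches in the peak. Rad1, a DNA damage checkpoint gene, and Brix1, a ribosome assembly gene, start 71 bp apart within a gap of 381 bp. Cct6b and Zfp830 start 39 bp apart, and their gap was 111 bp. For Atp6v1d, a subunit of the vacuolar proton pump, and Eif2s1, the alpha subunit of initiation factor 2, the spacing was 265 bp and the gap 844 bp. Irf3, a sensor-activated factor of interferon induction, starts 69 bp from Bcl2l12 within a gap of 309 bp, and Shc1, an adaptor of receptor signalling, starts 60 bp from Cks1b within a gap of 338 bp.

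Nearly all flanked peaks lay at CpG-rich promoters. A promoter was called high-CpG when a 500 bp window between 500 bp upstream and 2 kb downstream of the TSS had a GC content of at least 55% and an observed over expected CpG ratio of at least 0.6, and low-CpG when no window reached a ratio of 0.4. High-CpG promoters held 1694 of the 1741 flanked peaks (97.3%, interval 96.4 to 98.0%) and 83.3% of covered peaks, against 57.2% of all protein-coding genes. The difference from covered peaks was 14.0 points (12.5 to 15.5). Unmarked peaks were nearly as often at high-CpG promoters, in 246 of 259 cases, with a difference of 2.32 points (0.0802 to 5.76). Intermediate-CpG promoters held 37 flanked peaks (2.13%) and low-CpG promoters 10 (0.574%), against 10.2% and 6.48% of covered peaks. Read by gene, 2025 of 5322 Runx3-bound high-CpG genes (38.0%) had a flanked peak, 61 of 379 intermediate-CpG genes (16.1%) and 30 of 227 low-CpG genes (13.2%). The central 200 bp of flanked peaks had a median GC content of 65.0%, against 60.5% in covered and 64.0% in unmarked peaks, and the part of GC content in the recovery of reads was not tested.

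**Figure D3:**
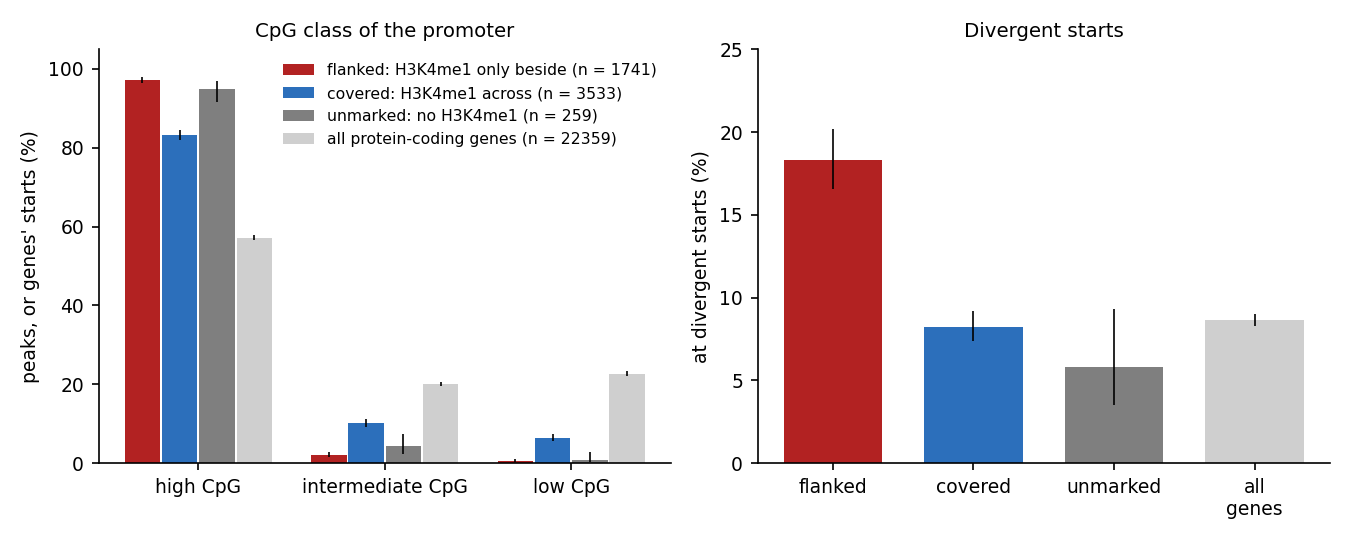
Promoter classes of the 1741 flanked, 3533 covered and 259 unmarked Runx3 peaks and of all 22359 protein-coding genes. Left, the percentage at high-, intermediate- and low-CpG promoters. Right, the percentage at divergent starts. Error bars are 95% Wilson intervals over peaks or genes. Genes are counted at their most upstream start and peaks at their nearest start. Flanked peaks have the highest bar for divergent starts at 18.3%.

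The RUNX consensus was concentrated under the centre of flanked peaks, but less so than under covered peaks. It occurred in the central 200 bp of 942 flanked peaks (54.1%, interval 51.8 to 56.4%), 64.0% of covered and 59.1% of unmarked peaks, and in 36.9% of equal windows around all protein-coding starts. Here and below, all starts means the most upstream start of each gene, whereas peaks were assigned to the nearest start of any protein-coding transcript. At high-CpG promoters the consensus was in 54.2% of flanked peaks and 39.7% of all starts. The difference from covered peaks was -9.86 points (-12.7 to -7.04), and -8.01 points (-11.0 to -5.06) at high-CpG promoters. Along the whole peak the shares were alike, at 91.8% and 91.6%, with a difference of 0.193 points (-1.44 to 1.73). The 143 flanked peaks without any match include Zbtb7b, Stat3, Gabpa and Cxcr4. The density of matches was 3.79 per kb in the central 200 bp and 1.91 per kb at 400 to 500 bp from the midpoint, against 4.76 and 1.88 per kb in covered peaks. The profile was lopsided, with 3.72 per kb at 100 to 150 bp and 2.60 per kb at -150 to -100 bp in flanked peaks. This was not particular to them, since the same bins held 4.32 and 2.63 per kb in unmarked peaks and 3.18 and 2.88 per kb in covered peaks. The form TGTGGT rose little in flanked peaks, with 0.402 to 0.724 per kb in the central 50 bp bins and 0.322 to 0.528 per kb at 400 to 500 bp. The match nearest to the midpoint was a median of 74.5 bp away in flanked and 56 bp away in covered peaks.

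The 4 forms of the RUNX consensus did not fall alike. TGTGGT was in the central window of 9.76% of flanked and 24.3% of covered peaks, and the difference at high-CpG promoters was -10.6 points (-12.6 to -8.56). TGCGGC was in 25.1% of flanked and 19.6% of covered peaks, a difference of 5.51 points (3.12 to 7.96), which was 3.27 points (0.734 to 5.86) at high-CpG promoters. TGTGGC was found in 15.3% and 19.0%, and TGCGGT in 16.8% and 19.2%. All protein-coding starts held TGTGGT in 10.1%, TGTGGC in 13.2%, TGCGGT in 5.69% and TGCGGC in 13.5% of windows. At high-CpG promoters alone, all starts held these forms in 6.01%, 11.6%, 7.84% and 21.1%. Flanked peaks there held them in 9.45%, 15.4%, 16.9% and 25.5%. At high-CpG promoters TGCGGT was the form in which flanked peaks exceeded the starts of all genes most, by 9.04 points (7.27 to 11.0).

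The ETS consensus (AGGAAGT or CGGAAGT, both strands) lay in the central window of 354 flanked peaks (20.3%, interval 18.5 to 22.3%), 18.5% of covered peaks and 12.6% of all starts. At high-CpG promoters the shares were 20.2% of flanked peaks, 17.1% of covered peaks and 14.9% of all starts. The form with CpG, CGGAAGT, was in 14.9% of flanked and 10.95% of covered peaks (difference 3.92 points, 2.0 to 5.93), and in 6.86% of all starts. Within high-CpG promoters CGGAAGT was in 14.9% of flanked peaks, 12.0% of covered peaks and 10.8% of all starts. It was also more frequent in flanked peaks touched on both sides than in those touched upstream only, by 6.34 points (2.36 to 10.01). Divergent starts carried an ETS match in 27.9% of flanked peaks and single starts in 18.6%. A RUNX and an ETS match together were found in 178 flanked peaks (10.2%), in 11.3% of covered peaks and in 4.63% of all starts. The last share covers starts of every CpG class. Each motif alone was also more frequent in flanked peaks than at all starts, and joint occurrence beyond the separate shares was not tested. The GC box GGGCGG, bound by SP1, was in 58.4% of flanked peaks and 39.6% of covered peaks, and within high-CpG promoters in 59.5% and 44.6%, while high-CpG starts of all genes held it in 62.6%. The letters TATAAA were in 2.64% of flanked peaks, against 3.42% of covered peaks and 8.19% of all starts. At high-CpG promoters TATAAA was in 2.66% of flanked peaks and 3.55% of all starts, a difference of -0.894 points (-1.64 to 0.0378). Motifs were searched on both strands, and a match is not evidence of a bound site.

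**Figure D4:**
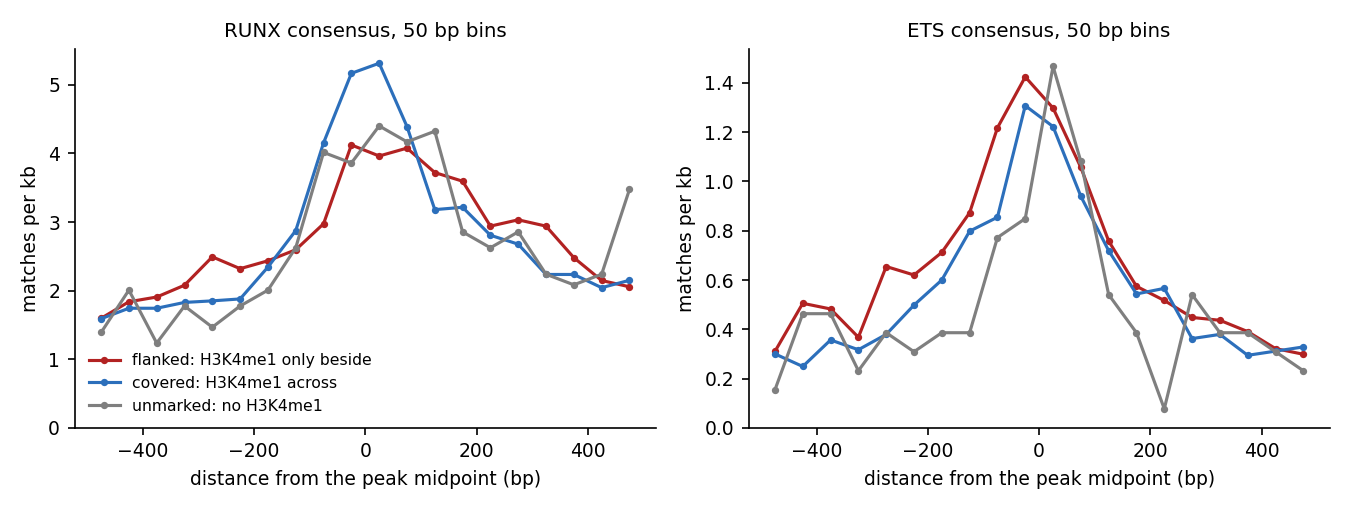
Density of the RUNX consensus (left) and the ETS consensus (right) around the midpoint of flanked, covered and unmarked promoter peaks. The horizontal axis is the distance from the midpoint in bp and the vertical axis the number of matches per kb in 50 bp bins. In the central 200 bp, RUNX matches number 3.79 per kb in flanked and 4.76 per kb in covered peaks, and ETS matches 1.25 and 1.08 per kb. The grey curves rest on 259 peaks and scatter more.

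Flanked peaks had fewer Runx3 neighbours. Another Runx3 peak lay within 10 kb of 474 flanked peaks (27.2%), against 40.1% of covered peaks, a difference of -12.8 points (-15.4 to -10.2). Unmarked peaks had one in 35.5% of cases, a difference of -8.30 points (-14.6 to -2.32). High-CpG promoters were not compared alone. A second Runx3 midpoint fell inside a touching H3K4me1-marked region for 8.79% of flanked and 15.8% of covered peaks. The regions that flanked peaks touched were a median of 1711.5 bp wide, against 2115.5 bp for covered peaks. A wider region more readily runs across a midpoint, so the last 2 contrasts are not independent of how the classes were drawn.

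Flanked peaks reached the starts of 2116 genes, which is 9.46% of 22359 protein-coding genes and 35.7% of the 5928 genes with any promoter peak. These shares are the background for the gene groups that follow. A flanked peak reached more than 1 gene in 383 cases (22.0%), 14 genes had more than 1 flanked peak, and 125 (5.91%) also had a covered peak at another start.

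Genes that define NKC were mostly not flanked. Of 61 NK receptor and effector genes, 36 had a promoter peak, 32 of them a covered one, and 3 a flanked one (8.33% of the 36, interval 2.87 to 21.8%). Only 4 of the 36 were at high-CpG promoters, and 2 of these 4 were flanked. The 3 genes were Ncr1, encoding NKp46, Lyst, which governs lysosome-related granules, and Stx11, a syntaxin needed for release of cytotoxic granules. The peak at Ncr1 (chr7:4288678-4290372, 1695 bp) was centred 199 bp downstream of the TSS in an intron, at a low-CpG promoter, with H3K4me1 beginning 196 bp upstream of the midpoint and the next region 3271 bp downstream. At Lyst the peak was centred 45 bp upstream of the TSS in a gap of 344 bp. At Stx11 it was centred 112 bp downstream, touched a region that began 431 bp downstream of the midpoint, and had no upstream region within 20 kb.

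Promoter peaks were also read at marker genes of several cell types. Over all genes, 5928 of 22359 had a promoter peak. Among 8 defining NK markers, 6 had a promoter peak (Ncr1, Klrb1c, Klrk1, Klrd1, Prf1 and Eomes). None of 6 B cell, 6 T cell and 4 erythroid markers had one, and 1 of 5 annotated myeloid markers had a covered peak, Itgam, which NKC also express. Peaks report binding at a promoter and not the number of cells. These counts cannot establish which cells were present. In CD8+ T cells the study reports Runx3 at an intronic Cd4 silencer and at Cd8 enhancers, which promoter counts need not include.

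Lymphocyte transcription factor genes had a flanked peak in 21 of 60 Runx3-bound cases (35.0%, interval 24.2 to 47.6%), close to the 35.7% over all bound genes. They included the interferon regulatory genes Irf1, Irf2 and Irf3, the signal transducers Stat2 and Stat3, and the NF-kB subunits Rel and Relb. They also included the ETS genes Elf2, Elk4, Etv6 and Gabpa together with Gabpb1, the Krüppel-like genes Klf2, Klf6 and Klf13, and the leucine zipper genes Bach2, Mafk, Creb1 and Crem. Tcf3, encoding E proteins, and Zbtb7b, which directs the CD4 lineage, completed the group. At Klf2, a regulator of quiescence and trafficking, the midpoint was on the TSS (0 bp), with H3K4me1 33 bp upstream of the midpoint and none for 3132 bp downstream. At Stat3 it was 18 bp downstream of the TSS, with regions 264 bp upstream and 887 bp downstream. At Irf1 the peak was 1589 bp wide and its gap 834 bp, and at Elk4 1801 bp and 839 bp. The smallest gap of the group was 191 bp, at Stat2. Bach2 had the most distant midpoint, 743 bp downstream in an intron.

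Cytokine receptor and signalling genes had a flanked peak in 13 of 56 Runx3-bound cases (23.2%, interval 14.1 to 35.8%), and in 9 of 30 at high-CpG promoters. The receptors were Il2rb and Il15ra, which serve interleukin 2 and 15, Ifngr1, the receptor of interferon gamma, and the chemokine receptor Cxcr4, with the integrin genes Itgal and Itga2. The signalling genes included the kinase Jak1, the adaptor Shc1, Pik3cd, and the restraining genes Socs1, Ptpn2 and Cbl. Il2rb and Itgal were at low-CpG and Il15ra at an intermediate-CpG promoter. At Il15ra the midpoint was 16 bp downstream of the TSS in a gap of 277 bp. At Il2rb it was 19 bp upstream of the TSS, and the regions lay 1293 bp upstream and 437 bp downstream, of which the peak touched the downstream one. Cbl had a gap of 1036 bp under a peak of 1906 bp.

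The flanked peaks of 2 of these 3 immune groups were mostly touched on the upstream side alone. This held for 13 of 21 peaks of the transcription factor group and 9 of 14 of the cytokine group, but 1 of 3 in the NK group. Of the 38 peaks of the 3 groups, 23 (60.5%) were touched upstream only, 6 downstream only and 9 on both sides (23.7%, interval 12.99 to 39.2%). The 9 were at Lyst, Irf3, Elk4, Stat2, Irf1, Mafk, Il15ra, Shc1 and Cbl. In the 19 other groups with flanked peaks, 192 of 322 peaks (59.6%, interval 54.2 to 64.8%) were touched on both sides and 65 (20.2%) upstream only. Single groups among the 19 varied widely in the upstream-only count, from 0 of 11 for proteasome subunits to 11 of 23 for chromatin modifiers and 1 of 2 for nuclear pore genes. Divergent starts, which were more often touched on both sides, accounted for 3 of the 38 peaks (7.89%) and 93 of the 322 (28.9%). The median distance from midpoint to TSS was 124 bp in the immune groups and 79 bp in the others. This contrast was noticed after the values were seen and was not tested.

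**Figure D5:**
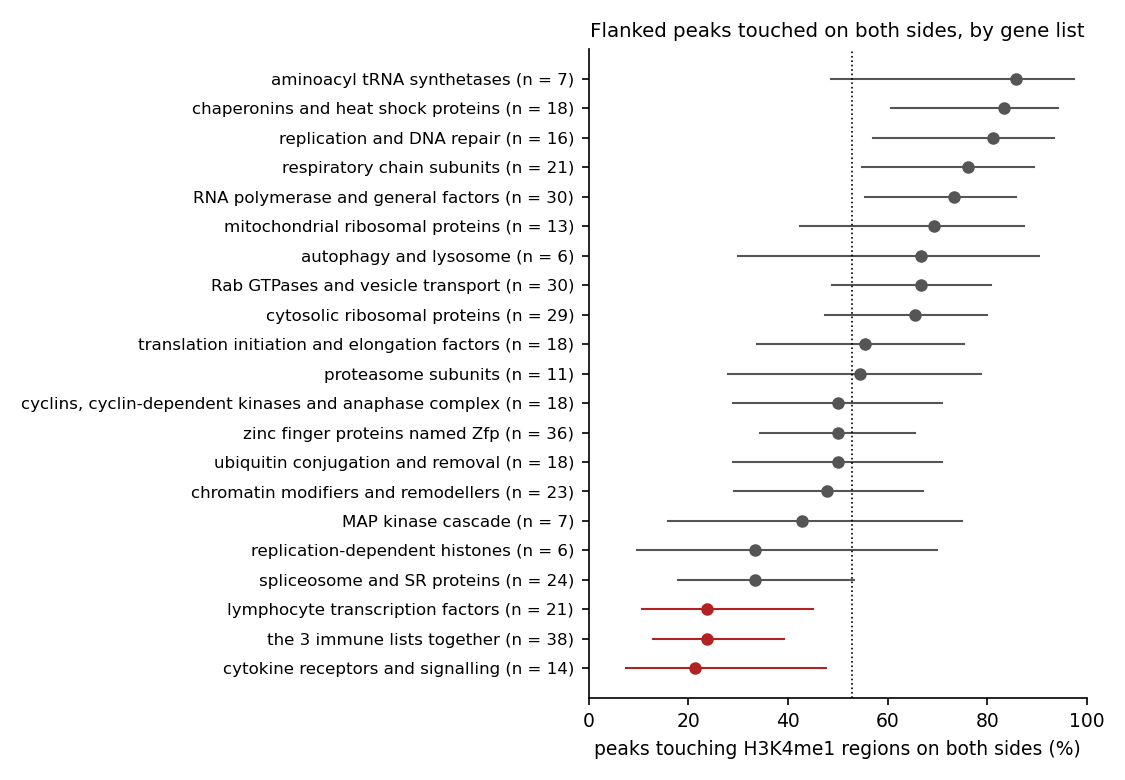
Percentage of flanked peaks touched by H3K4me1 on both sides in each gene group with at least 6 flanked peaks. Points are percentages, lines 95% Wilson intervals and the dotted line the 52.9% of all flanked peaks. The 2 immune groups and the 3 immune groups together (red) lie at 21.4 to 23.8%. The other groups run from 33.3% for the spliceosome and the replication-dependent histones to 85.7% for the aminoacyl tRNA synthetases.

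Among genes of protein synthesis the share that was flanked differed by group. Cytosolic ribosomal protein genes had a flanked peak in 29 of 53 bound cases (54.7%, interval 41.5 to 67.3%), translation factors in 18 of 37 (48.6%), aminoacyl tRNA synthetases in 7 of 18 (38.9%) and mitochondrial ribosomal proteins in 13 of 42 (31.0%). The peak at Rpl26 was centred 4 bp upstream of the TSS and touched H3K4me1 downstream only. At Rpl37 it was centred 11 bp upstream within a gap of 618 bp, and at Rps13 17 bp upstream within a gap of 328 bp. Eif4b had a gap of 552 bp and Eif2ak4, a kinase that senses uncharged tRNA, one of 265 bp. Gga3 and Mrps7 start 32 bp apart in a gap of 410 bp.

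The next groups serve RNA synthesis and processing. The spliceosome and SR protein genes were flanked in 23 of 45 bound cases (51.1%, interval 37.0 to 65.0%), RNA polymerase and general factor genes in 30 of 68 (44.1%), and chromatin modifiers in 23 of 49 (46.9%). Nuclear pore genes had 2 of 9. Polr2a, the large subunit of RNA polymerase II, had its midpoint 9 bp downstream of the TSS in a gap of 661 bp. Med4, of the Mediator complex, had the narrowest gap of any flanked peak, at 14 bp. Snrpe and Smarca4, which encode a core splicing protein and a remodelling ATPase, had gaps of 426 bp and 674 bp. The spliceosome peaks were touched on both sides in 8 of 24 cases and downstream only in 11, while those of the polymerase group were touched on both sides in 22 of 30.

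Groups of energy metabolism and protein turnover had shares from 21.4 to 45.7%. Respiratory chain genes were flanked in 21 of 46 bound cases (45.7%, interval 32.2 to 59.8%), chaperonins and heat shock proteins in 19 of 44 (43.2%), proteasome subunits in 11 of 27 (40.7%), ubiquitin enzymes in 18 of 51 (35.3%) and autophagy and lysosome genes in 6 of 28 (21.4%). The respiratory gene Ndufb9 starts 80 bp from Tatdn1, and its gap was 89 bp. Ndufv3 starts 150 bp from Wdr4 with a gap of 425 bp. The proteasome genes Psma1 and Psmd1 had gaps of 319 bp and 248 bp. Divergent starts made up 9 of the 21 respiratory peaks and 9 of the 18 chaperonin peaks.

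The remaining groups had shares from 22.9 to 40.9%. Replication and repair genes were flanked in 16 of 53 bound cases (30.2%), cyclins and their kinases in 18 of 44 (40.9%), MAP kinase genes in 7 of 18 (38.9%), Rab and vesicle genes in 30 of 74 (40.5%), zinc finger genes named Zfp in 37 of 120 (30.8%) and replication-dependent histones in 8 of 35 (22.9%). The intervals of these groups include 35.7%, as do those of the groups named above except the NK group, which lies below it, and the cytosolic ribosomal protein and spliceosome groups, which lie above it. Against the 38.0% of Runx3-bound high-CpG genes, the cytosolic ribosomal protein genes at such promoters were flanked in 28 of 50 cases (interval 42.3 to 68.8%) and the spliceosome genes in 23 of 44 (interval 37.9 to 66.2%), which includes the background, as does the interval of the NK group (2 of 4). Of the 1440 olfactory and vomeronasal receptor genes, 4 had a promoter peak and 0 a flanked one. Fanci, a crosslink repair gene, had its midpoint 1 bp upstream of the TSS with 3 ETS matches in the central window and a gap of 99 bp. Cdk7, of the kinase that activates cell cycle kinases, had a gap of 225 bp. Sec23a, of the vesicle coat, had a gap of 485 bp.

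The borders of the selection passed through continuous values. Just inside the promoter distance lay the peaks at Impact (988 bp), Sfpq (934 bp) and Sft2d3 (910 bp), and just outside it those at Clk3 (1022 bp), Ccdc88c (1026 bp) and Papd7 (1036 bp). Peaks at Trim27 and Ubox5 shared 1 bp with H3K4me1 and that at Med26 2 bp, whereas that at Moap1 abutted a region (0 bp) and those at Ralgapa2 and Fbxo34 missed one by 1 and 2 bp. The midpoints at Ercc4, Pi4ka and Plekha2 were 1 bp outside a region, and those at Sac3d1, Ccpg1 and 4933432B09Rik lay on its last base. In all, 207 flanked peaks had their midpoint up to 25 bp outside a region and 237 covered peaks up to 25 bp inside.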

How the data were processed

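The authors aligned the reads to mm9 with ELAND, joined the reads of repeat experiments and called enriched regions with MACS against NIS, as the study's methods state. The submitters' processing notes name CASAVA 1.7. The 2 deposited lists hold region coordinates only, so values here are positions and counts of peaks. All regions lay on 20 chromosomes of mm9, and 1 H3K4me1 region ran past a chromosome end.

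Peaks were sorted by midpoint against protein-coding transcript starts of GENCODE M1 (46015 starts of 22359 genes) with Python 3.11.15, numpy 2.4.6 and scipy 1.17.1, and the code was tested on simulated regions. Backgrounds over all protein-coding genes used the most upstream start of each gene. Figures were drawn with matplotlib 3.10.9. The members and the gene lists were chosen with earlier results of these data known. Named were the flanked genes of the 3 immune lists, up to 3 genes of every other list with the midpoint nearest to a start, the 5 widest peaks, the 5 widest gaps and the peaks next to each threshold, and some items under this rule are not reported here. Med4 as the narrowest gap was chosen after its value was seen. Printed windows came from those lists, from divergent pairs and from peaks without a RUNX match. NIS had no list, so it entered only through the authors' calling. No test across replicates was possible. Alternatives for starts, distance, overlap, regions and definitions are given at the end.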

Additional observations from a re-analysis of the deposited data

How the results depend on the processing

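Across 9 results and 12 alternative settings, 55 of 77 values stayed within the main interval (for the number of peaks, within 1.5 times), 22 moved and 0 changed sign. Keeping only Runx3 peaks wider than the median of 825 bp left 1132 flanked peaks, 38.2% of promoter peaks, of which 60.8% were touched on both sides and 20.9% lay at divergent starts, with a median distance to H3K4me1 of 124.5 bp. With the starts of all transcripts the flanked share was 29.2% and the divergent share 25.4%. With 1 start per gene they were 33.5% and 14.9%, and the median signed distance was -7 bp (interval -14 to 4 bp). A promoter distance of 500 bp gave a flanked share of 33.9% and one of 2 kb 28.4%. Requiring at least 100 bp of shared sequence gave 29.3%, with 46.4% touched on both sides and a median distance of 108 bp. H3K4me1 regions of at least 1000 bp gave 43.9% and 130 bp. A stricter CpG definition gave 92.2% high-CpG promoters, and divergent starts up to 500 bp apart gave 16.0%. Searching the whole peak gave 91.8% for RUNX and 45.5% for ETS. Regions within 2 kb, touching or not, gave 86.4% on both sides. The cause of each shift was not tested beyond the change in definition itself. Both lists carry no signal, so how sharply H3K4me1 fell inside the gaps is not known. No paired analysis was possible because the series held 1 sample per antibody and the lists were not split by repeat.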

Other observations

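H3K4me1 around starts was also read for genes without a promoter Runx3 peak. At high-CpG starts the share of genes with the TSS inside an H3K4me1-marked region was 48.9% of 5322 genes with and 49.7% of 7468 genes without a promoter Runx3 peak. Regions within 2 kb on both sides of an unmarked TSS were found for 42.5% of genes with and 17.3% of genes without a Runx3 peak, and no region within 2 kb for 0.564% and 22.1%. The flanked arrangement of the TSS was thus also present at 1294 high-CpG genes to which no promoter Runx3 peak was assigned.

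Chromosome X held 36 of 1741 flanked peaks (2.07%), 24 of 3533 covered peaks (0.679%) and 31 of 259 unmarked peaks (12.0%). Of the 36, 4 were touched by H3K4me1 on both sides, 14 upstream only and 18 downstream only. Timm17b, with a gap of 1178 bp, was 1 of these 4.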
